A study of Mus musculus with 16 samples.

Results

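The genes described here are 40 members of the NF-kB pathway and its targets in mouse: 7 receptors, 11 adaptors and kinases, 3 subunits of the IKK complex, 5 NF-kB subunits, 5 IkB proteins, 2 feedback inhibitors, 5 effector targets and 2 C/EBP factors. They were taken by symbol from the gene count table, on the condition of at least 10 reads in 4 or more libraries, and all 40 of 40 met it. All 40 were also among the 13949 genes tested, of 52997 symbols in the table. The libraries came from muscle mesenchymal stromal cells (mSC), connective tissue cells that lie between the muscle fibres, taken from hindlimb skeletal muscle of 8-week-old C57BL/6 mice, with 1000 double-sorted cells a library. Mice had been injected intraperitoneally with CGRP (calcitonin gene-related peptide, a neuropeptide of sensory nerve endings) or with PBS (phosphate-buffered saline), and cells were collected 4 h or 8 h after that. The 4 groups were thus PBS 4 h, CGRP 4 h, PBS 8 h and CGRP 8 h, all of 1 strain and age with no genetic alteration named, and each had 4 replicates that the submitters call biological. Whether a replicate was 1 mouse or a pool, the dose of CGRP, the sort gate and the sex of the mice are not stated in the labels.

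NF-kB is a family of dimeric transcription factors built from RelA, RelB, c-Rel, p50 (from Nfkb1) and p52 (from Nfkb2). In resting cells IkB proteins hold the dimers in the cytoplasm. Receptors for TNF, interleukin 1 or microbial products signal through adaptors and kinases to the IKK complex, which marks IkB for destruction and lets the dimers enter the nucleus, and the target genes include Nfkbia and Tnfaip3, which shut the pathway down again. Stromal cells are known to answer these receptors with chemokines, adhesion molecules and matrix-binding proteins. Much of this control acts on proteins, which mRNA levels do not show.

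The libraries held 6373713 to 10011920 counts. The 40 genes together took 0.187% ± 0.00618 of the counts at PBS 4 h (SD, n = 4), 0.237% ± 0.0234 at CGRP 4 h, 0.180% ± 0.00672 at PBS 8 h and 0.196% ± 0.0141 at CGRP 8 h. The stromal markers (11 of 11 detected) summed to 139970 to 188220 CPM (reads scaled to a common library size) over all libraries, lower after CGRP than after PBS at 4 h (147850 to 153730 against 164440 to 188220) and at 8 h (139970 to 159870 against 163760 to 176320). Most of that sum was Gsn (109400 CPM at PBS 4 h). Of the 11 genes Pdgfra, Pdgfrb, Cd34 and Dcn fell at 4 h and Pdgfra and Dcn at 8 h, whereas Ly6a rose at both times (log2 0.26 and 0.35, adjusted p = 0.0194 and 0.00509 by edgeR). Of the other cell types, the 11 macrophage and myeloid markers summed to 4.99 to 9.89 CPM at PBS 4 h and 5.44 to 8.29 at CGRP 4 h, and at 8 h to 5.11 to 6.88 and 5.10 to 7.80. The 9 lymphocyte markers stayed at or under 2.13 CPM in all, and the 9 endothelial markers summed to 82.0 to 144 CPM at PBS 4 h and 93.6 to 117 at CGRP 4 h, then to 109 to 131 and 79.2 to 106 at 8 h, without overlap. Nearly all of this was Tek (108 CPM at PBS 4 h), while Pecam1 stayed at or under 1.88 CPM and Cdh5 at or under 0.708 in every library. The 8 pericyte and smooth muscle markers, mainly Cspg4, differed with the treatment at 4 h, at 71.8 to 137 CPM after PBS and 32.1 to 68.9 after CGRP, then 115 to 173 and 99.6 to 133 at 8 h. The 8 myofibre markers, mainly Acta1, had a lower sum after CGRP at 8 h (112 to 160 CPM against 166 to 268). At 4 h the sums overlapped (94.9 to 153 CPM against 125 to 185). Of the 7 tested, only Acta1 and Atp2a1 fell at 8 h. Atp2a1 was also higher at PBS 8 h than at PBS 4 h (log2 1.10, adjusted p = 0.00464 by edgeR). The 7 satellite cell markers summed to 59.1 to 68.0 CPM at PBS 4 h and 49.5 to 62.2 at CGRP 4 h. At 8 h they summed to 61.7 to 67.7 CPM after PBS and 49.6 to 85.3 after CGRP. Most of this was Des (54.2 CPM at PBS 4 h), and Myf5 was at 0 in all 16 libraries. The share of the transcript Gm10800 was 1.77% to 2.45% in PBS 8 h replicates 1 to 3 and 0.536% to 1.01% in the other 13 libraries. The part of these shifts in the results below was not tested, and in bulk RNA fewer cells of a type and less RNA per cell cannot be told apart.

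Sequence before the start site is shown first, since the members are grouped by a transcription factor. RefSeq promoter windows (GRCm38.p6, 250 bases before to 50 after each start) were at hand for 32 of the 40 members, in 43 windows, and Cebpd, Ikbkb, Nfkb1, Nfkbiz, Relb, Ripk2, Tlr4 and Vcam1 had none. The NF-kB consensus, searched on both strands with overlapping matches kept, was in a window of 14 of the 32 members (43.8%) and of 9.55% of 27025 genes. The CRE, TGACGTCA, the site of the cAMP-responsive factor CREB, was in 1 member, Birc2, and in 2.03% of all genes. Its shorter form TGACG, which the CRE contains, was in 12 members (37.5%) and in 23.0% of all genes. The C/EBP motif TTGCNNCAA was in 1 member, Birc2, and in 2.38% of all genes. The stretches printed here each lie upstream of 1 RefSeq start of the gene, 5′ to 3′ on the gene's strand, with matches to the NF-kB consensus on either strand in capitals. Rel (chr11:23770971-23771099, reverse strand) and Sod2 (chr17:13007709-13007816, forward) are shown because they rose at 4 h and their windows hold a match. The windows of Tnfrsf1a, Tnfrsf1b, Irak3, Nfkbib and Tnfaip6, which also rose, hold none. Nfkbia (chr12:55492648-55492777, reverse) and Tnfaip3 (chr10:19015411-19015540, reverse) are shown as the feedback genes that were not called, and Nfkb2 (chr19:46305445-46305574, forward) as 1 of the 2 members called at 8 h. Those of Sod2, Tnfaip3 and Nfkb2 lie inside the gene as GENCODE M21 annotates it, which also has starts farther upstream, and those of Rel and Nfkbia lie outside it.
Rel: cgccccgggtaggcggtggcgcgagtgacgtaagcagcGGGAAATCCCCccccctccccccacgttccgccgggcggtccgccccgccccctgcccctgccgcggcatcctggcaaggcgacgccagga
Sod2: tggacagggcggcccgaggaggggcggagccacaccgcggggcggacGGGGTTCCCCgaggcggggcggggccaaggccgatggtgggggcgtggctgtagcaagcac
Nfkbia: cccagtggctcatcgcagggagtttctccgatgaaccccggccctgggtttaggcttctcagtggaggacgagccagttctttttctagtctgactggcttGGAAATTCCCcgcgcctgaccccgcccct
Tnfaip3: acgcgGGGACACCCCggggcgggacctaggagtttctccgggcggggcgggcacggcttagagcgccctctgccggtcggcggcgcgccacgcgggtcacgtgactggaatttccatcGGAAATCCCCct
Nfkb2: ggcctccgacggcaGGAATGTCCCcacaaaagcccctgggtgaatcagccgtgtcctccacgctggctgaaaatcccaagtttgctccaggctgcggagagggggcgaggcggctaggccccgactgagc
The 5 stretches were picked from windows that hold a match, so that each holds at least 1 is not a result. That of Tnfaip3 holds 2 separate ones, and the other window of Tnfaip3, not printed, holds none. Nfkb2 has matches nearer to a start that are not printed. They lie 39 and 11 bases before the start of another window and 10 bases after that of the printed one. Of the members with a window, 3 of the 9 called at 4 h held the consensus (Il1r1, Rel and Sod2) and 11 of the 23 not called did. A match is a description of letters, and none says only that they are not in the window.

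Levels are compared between genes on the scale of CPM per kilobase of merged exon (GENCODE M21). At PBS 4 h the highest level was that of Nfkbia, the IkB that is itself an NF-kB target, at 105 ± 16.2 CPM per kb. The TNF receptor gene Tnfrsf1a followed at 94.7 ± 7.07, Irak3 at 38.5 ± 4.53, Myd88 at 28.8 ± 5.22, Tnfaip6 at 28.5 ± 4.50 and Rela at 25.1 ± 3.98. Nfkbia and Tnfrsf1a overlapped within 1 SD, as did Myd88, Tnfaip6 and Rela, whereas Irak3 stood below the first pair and only touched Myd88 at 1 SD. The lowest levels were those of Cebpb (0.891 ± 0.762), Rel (0.410 ± 0.0683) and Traf1 (0.337 ± 0.0438). Among the NF-kB subunits the order on this scale at PBS 4 h was Rela, Relb (9.77 ± 1.11), Nfkb2 (8.40 ± 0.267), Nfkb1 (4.59 ± 0.331) and Rel. Relb and Nfkb2 did not differ by more than their summed SD. The place of Nfkb1 depends on the merged exon length, which is 12061 bases for Nfkb1, 3885 for Relb and 4584 for Nfkb2. In CPM, not divided by length, Nfkb1 (55.3) stood above Nfkb2 (38.5) and Relb (38.0) at PBS 4 h. The spread between replicates, as the fit's biological coefficient of variation, ran from 9.78% for Tnfrsf1a to 49.1% for Cebpd with a median of 15.7%. Exons of 16 members overlap another annotated gene, by more than 10% of their length in 6 of them (Cebpb 20.7%, Nfkb2 18.1%, Nfkbib 16.4%, Cebpd 15.0%, Icam1 11.7% and Myd88 11.3%, each with a gene on the opposite strand). The library kit does not mark the strand, so reads of the partners in those stretches cannot be told apart.

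**Figure D1:**
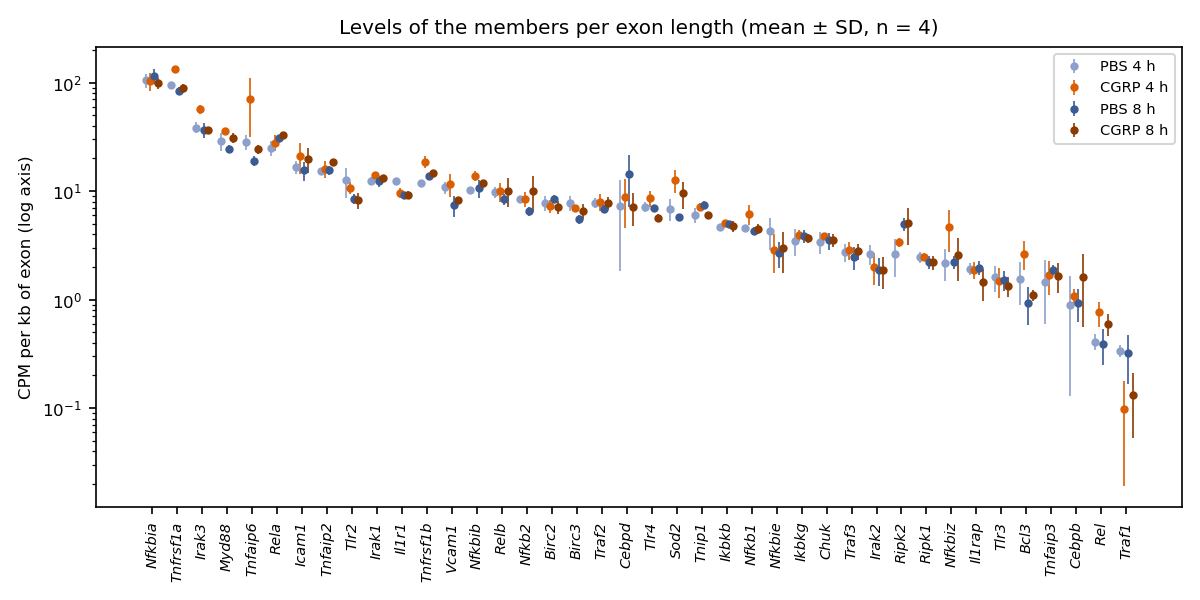
CPM per kilobase of merged exon of the 40 members (log axis, mean ± SD, n = 4 libraries a group), ordered by the level at PBS 4 h. Nfkbia (105 CPM per kb) and Tnfrsf1a (94.7) lead, Rel (0.410) and Traf1 (0.337) are lowest.

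At 4 h, CGRP was followed by higher levels of both TNF receptors, the kinase-like Irak3, Nfkb1, Rel and the IkB genes Nfkbib and Nfkbiz. The targets Tnfaip6 and Sod2 were also higher, and Il1r1 and Traf1 were lower. Of 40 members 9 rose and 2 fell at an adjusted p under 0.05 (edgeR's quasi-likelihood test, Benjamini-Hochberg over all 13949 genes). Over all genes tested 16.2% were called, 7.84% as rises and 8.37% as falls. Among the members 27.5% were called and 22.5% rose. The median log2 fold change was 0.17 over the members and -0.00 over all genes, and 30 members were above 0 and 10 below. The 4 libraries of each group did not overlap for 7 members higher after CGRP (8.95% of all genes) and for 2 lower (9.90%). Over the 9 genes that rose, CGRP 4 h replicate 4 was the highest of its group in 7, and over all 40 members in 19. Without that library 6 members were called, 5 of them rises, and 1481 of all genes were called in place of 2262. Without PBS 4 h replicate 1 or 2 the members called numbered 7.

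**Figure D2:**
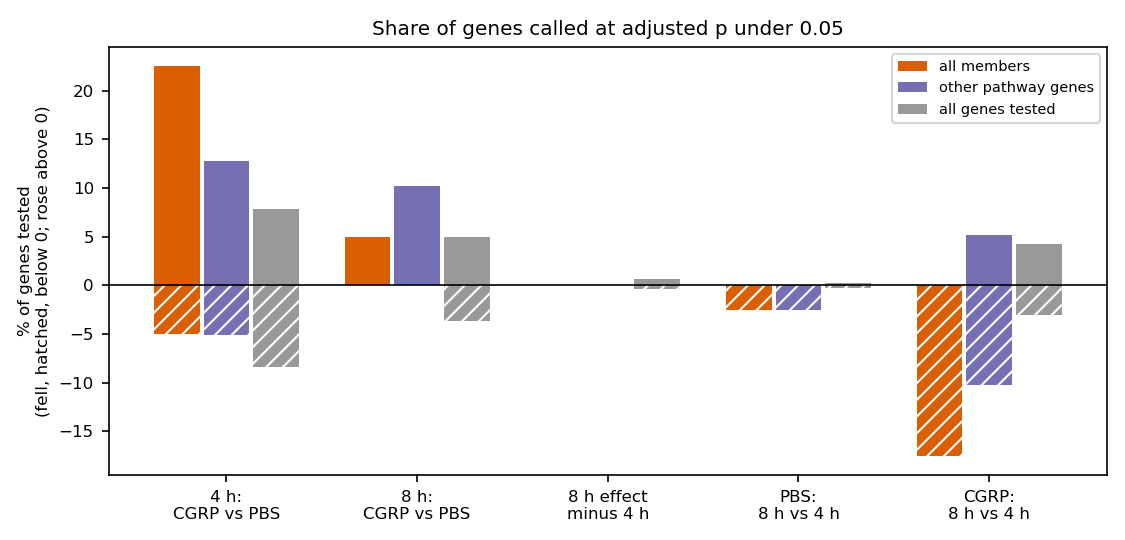
Share of tested genes that rose (above 0) or fell (hatched, below 0) at an adjusted p under 0.05 in the 5 comparisons, for the 40 members, the 78 other pathway genes tested and all 13949 genes. At 4 h 22.5% of the members rose against 7.84% of all genes, and at 8 h 5.00% of each.

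Of the 7 receptors 2 rose and 1 fell. Tnfrsf1a (chr6:125349362-125362484, mm10), the receptor for TNF found on most cells, read 246, 243, 269 and 224 CPM in PBS 4 h replicates 1 to 4, and 334, 349, 332 and 356 in the CGRP replicates. The groups did not overlap. Its log2 fold change was 0.48 ± 0.08 (SE; adjusted p = 3.21e-04 by edgeR). Tnfrsf1b (chr4:145213463-145246870), the other TNF receptor, which lacks a death domain, read 47.0, 45.8, 41.8 and 48.3 CPM after PBS and 80.03, 67.6, 61.2 and 76.9 after CGRP. Again no libraries overlapped, and the mean went from 45.7 ± 2.80 to 71.4 ± 8.62 CPM (log2 0.64 ± 0.10, adjusted p = 1.19e-04 by edgeR). Il1r1 (chr1:40225080-40317257), the signalling receptor for interleukin 1, moved the other way. It read 77.9, 76.2, 85.2 and 74.6 CPM after PBS and 53.6, 59.3, 67.0 and 66.4 after CGRP, with every CGRP library below every PBS library (log2 -0.35 ± 0.10, adjusted p = 0.0142 by edgeR). That call was lost without PBS 4 h replicate 3 or CGRP 4 h replicate 1 (adjusted p 0.0587 to 0.0746). Its partner chain Il1rap (log2 -0.03) and the toll-like receptor genes Tlr2 (-0.24), Tlr3 (-0.11) and Tlr4 (0.26) were not called, with the lowest adjusted p at 0.145 for Tlr4.

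Of the 11 adaptors and kinases 1 rose and 1 fell. Irak3 (chr10:120141648-120202130), a kinase-like protein that holds back signalling from interleukin 1 and toll-like receptors, read 119, 139, 152 and 156 CPM after PBS and 215, 188, 200 and 230 after CGRP. The groups were well apart, with means of 142 ± 16.6 and 208 ± 18.6 CPM (log2 0.55 ± 0.11, adjusted p = 9.82e-04 by edgeR). Traf1 (chr2:34941750-34961772), a TNF receptor adaptor and NF-kB target, had few reads: 22, 30, 25 and 23 counts in the PBS libraries and 6, 6, 15 and 2 in the CGRP libraries. The groups did not overlap in CPM (2.97 ± 0.386 against 0.871 ± 0.703; log2 -1.75 ± 0.52, adjusted p = 0.0243 by edgeR). Leaving out any of 5 libraries (PBS 4 h replicate 1 or 2, or CGRP 4 h replicate 1, 2 or 4) ended the call, with adjusted p between 0.0521 and 0.0872, and without CGRP 4 h replicate 3 the log2 fold change was -2.41. Myd88, the adaptor that interleukin 1 and toll-like receptors share, was just outside the threshold, at 74.2 ± 13.4 CPM after PBS and 92.8 ± 5.42 after CGRP (log2 0.32 ± 0.11, adjusted p = 0.0520 by edgeR). PBS 4 h replicate 3, at 91.7 CPM, lay among the CGRP libraries. The kinases Irak1, Irak2, Ripk1 and Ripk2, the adaptors Traf2 and Traf3 and the ubiquitin ligases Birc2 and Birc3 were not called, with log2 fold changes from -0.38 to 0.35.

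None of the 3 IKK genes was called. Their log2 fold changes were 0.14 ± 0.09 for Ikbkb and 0.19 ± 0.17 for Chuk, the 2 kinases, and 0.17 ± 0.16 for the scaffold Ikbkg (adjusted p 0.314 to 0.521 by edgeR).

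Of the 5 NF-kB subunits 2 rose. Nfkb1 (chr3:135584655-135691547), which encodes p50 and its precursor p105, read 53.3, 60.9, 55.2 and 51.9 CPM after PBS and 61.3, 84.4, 60.9 and 91.8 after CGRP. Replicates 2 and 4 of the CGRP group were high, while replicates 1 and 3 lay at the top of the PBS range (log2 0.43 ± 0.12, adjusted p = 0.0201 by edgeR). The call was lost without PBS 4 h replicate 4, CGRP 4 h replicate 2 or CGRP 4 h replicate 4. Rel (chr11:23736847-23770970), which encodes c-Rel, read 3.56, 2.39, 2.97 and 3.33 CPM after PBS and 5.28, 3.75, 6.91 and 6.78 after CGRP, or 23 to 55 counts a library. No libraries overlapped, but the adjusted p of 0.0480 (log2 0.89 ± 0.30, edgeR) sat at the threshold, and the call was lost in 11 of the 16 fits that left out 1 library. Rela, which encodes the main activating subunit, read 71.8, 70.1, 71.5 and 95.6 CPM after PBS and 76.1, 82.6, 79.3 and 107 after CGRP. Replicate 4 was the highest in each group, and the groups overlapped (log2 0.16 ± 0.11, adjusted p = 0.386 by edgeR). Relb read 36.9, 34.4, 36.3 and 44.3 CPM after PBS and 28.7, 36.9, 42.0 and 47.3 after CGRP, overlapping throughout (log2 0.02 ± 0.18). Nfkb2 read 39.9, 36.9, 38.7 and 38.5 CPM after PBS and 32.4, 43.2, 34.9 and 44.9 after CGRP, a wider spread around the same mean (log2 0.01 ± 0.18).

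Of the 5 IkB proteins 2 rose. Nfkbib (chr7:28758251-28767512), which encodes IkB-beta, read 20.2, 22.1, 21.6 and 24.5 CPM after PBS and 27.4, 28.9, 28.8 and 35.1 after CGRP. Every CGRP library was above every PBS library (log2 0.44 ± 0.13, adjusted p = 0.0272 by edgeR), though the call was lost without PBS 4 h replicate 1, 2 or 3 or without CGRP 4 h replicate 4. Nfkbiz (chr16:55811375-55838899), which encodes the nuclear IkB-zeta, a coactivator of secondary target genes, read 8.69, 8.42, 10.7 and 16.2 CPM after PBS and 13.4, 28.1, 17.97 and 35.2 after CGRP. The mean rose from 11.0 ± 3.63 to 23.7 ± 9.85 CPM, with PBS replicate 4 above CGRP replicate 1 (log2 1.09 ± 0.30, adjusted p = 0.0187 by edgeR). Without PBS 4 h replicate 1 or 2 or CGRP 4 h replicate 4 its adjusted p was 0.0608 to 0.0750. Nfkbia, which encodes IkB-alpha, read 143, 162, 163 and 205 CPM after PBS and 160, 151, 142 and 213 after CGRP. The groups coincided, with replicate 4 the highest in both (log2 -0.02 ± 0.14, adjusted p = 0.954 by edgeR). Bcl3, a nuclear IkB that binds p50 and p52, was at 3.84 ± 1.63 CPM after PBS and 6.58 ± 1.94 after CGRP (log2 0.78 ± 0.33, adjusted p = 0.112), and Nfkbie at 13.0 ± 4.32 and 8.80 ± 3.43 (log2 -0.56 ± 0.35, adjusted p = 0.308), neither of them called by edgeR.

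The feedback inhibitors Tnfaip3, which encodes the ubiquitin-editing enzyme A20, and its partner Tnip1 were not called (log2 0.23 ± 0.32 and 0.25 ± 0.13). Tnfaip3 was uneven among the PBS libraries, at 18.8, 5.62, 6.07 and 11.4 CPM, a range that holds all 4 CGRP values of 9.44, 8.10, 14.2 and 17.2.

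Of the 5 effector targets 2 rose. Tnfaip6 (chr2:52038009-52056686) encodes TSG-6, a secreted protein that binds hyaluronan and restrains inflammation. It read 40.3, 47.6, 59.0 and 48.3 CPM after PBS and 77.1, 106, 82.2 and 220 after CGRP. The groups did not overlap, and CGRP replicate 4 was far above the next library. The log2 fold change was 1.31 ± 0.27 (adjusted p = 0.00466 by edgeR). Without that library it was 0.86 (adjusted p = 2.59e-04), and with all 4 replicates but only the 8 libraries of the comparison fitted the adjusted p was 0.0619. Sod2 (chr17:13006846-13040063), the mitochondrial superoxide dismutase, read 58.0, 58.8, 91.0 and 67.4 CPM after PBS and 96.0, 130, 112 and 168 after CGRP, again without overlap (log2 0.88 ± 0.20, adjusted p = 0.00633 by edgeR). The adhesion genes Icam1 and Vcam1 were not called. Icam1 read 71.2, 72.8, 84.7 and 61.2 CPM after PBS and 53.9, 101, 90.2 and 124 after CGRP, with the lowest and the 3 highest values all in the CGRP group (log2 0.35 ± 0.24, adjusted p = 0.373). Vcam1 was at 96.0 ± 12.5 and 103 ± 24.9 CPM and Tnfaip2 at 76.5 ± 3.73 and 80.4 ± 14.7. The C/EBP factors Cebpb and Cebpd, which often act beside NF-kB at acute-phase genes, had log2 fold changes of 0.25 ± 0.55 and 0.26 ± 0.52 with wide errors, and neither was called.

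**Figure D3:**
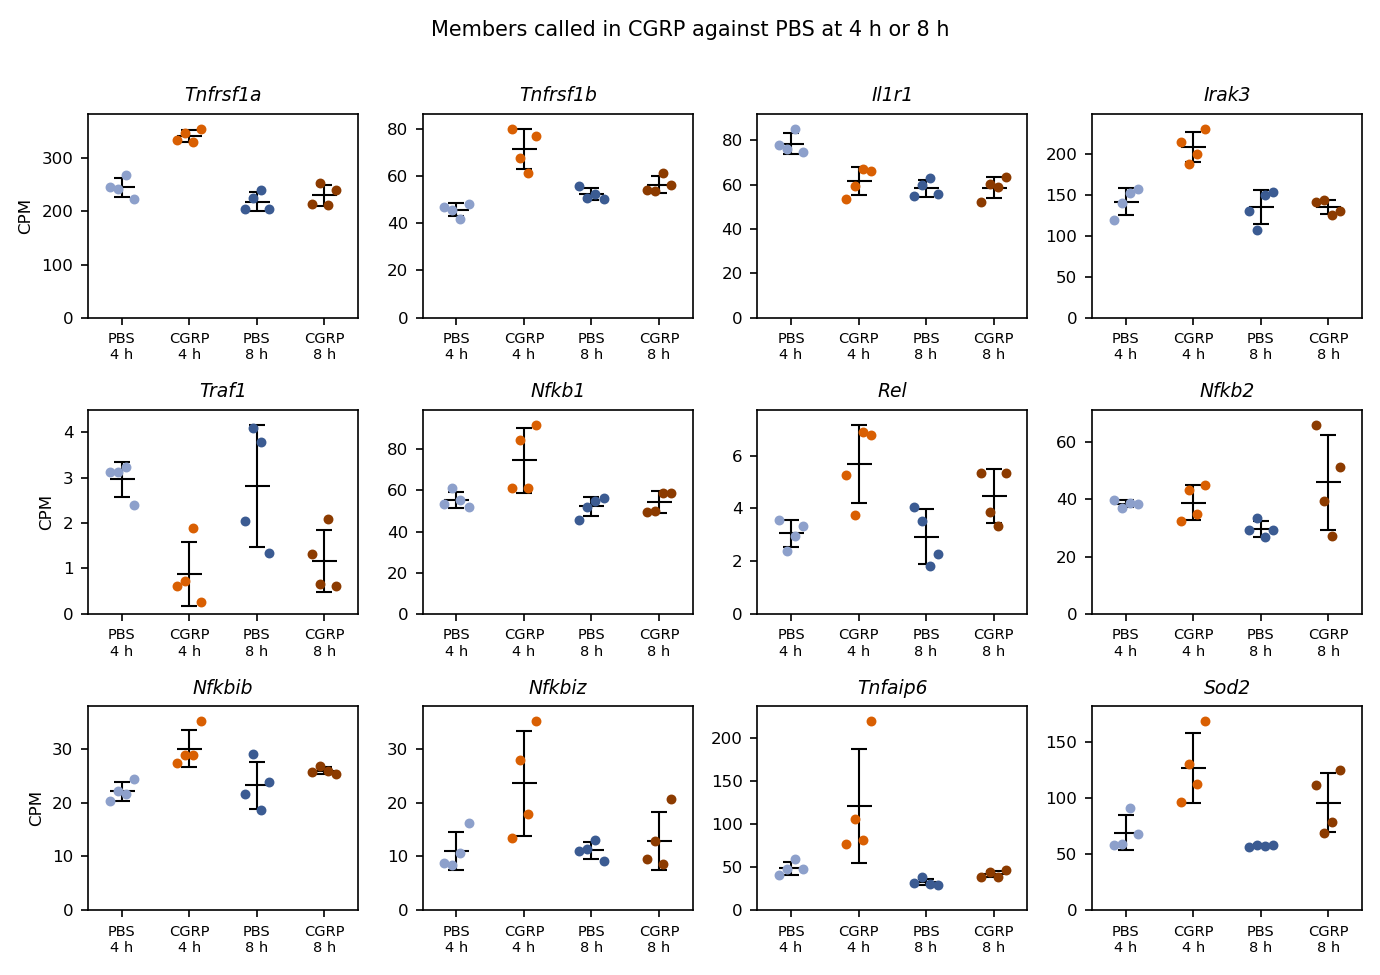
CPM of the 12 members called at 4 h or 8 h, 1 point a library in the order of its replicate number, with the mean and SD (n = 4) as bars. At 4 h Tnfrsf1a, Tnfrsf1b and Irak3 are apart in all libraries, and Tnfaip6 is led by CGRP replicate 4 at 220 CPM.

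**Figure D4:**
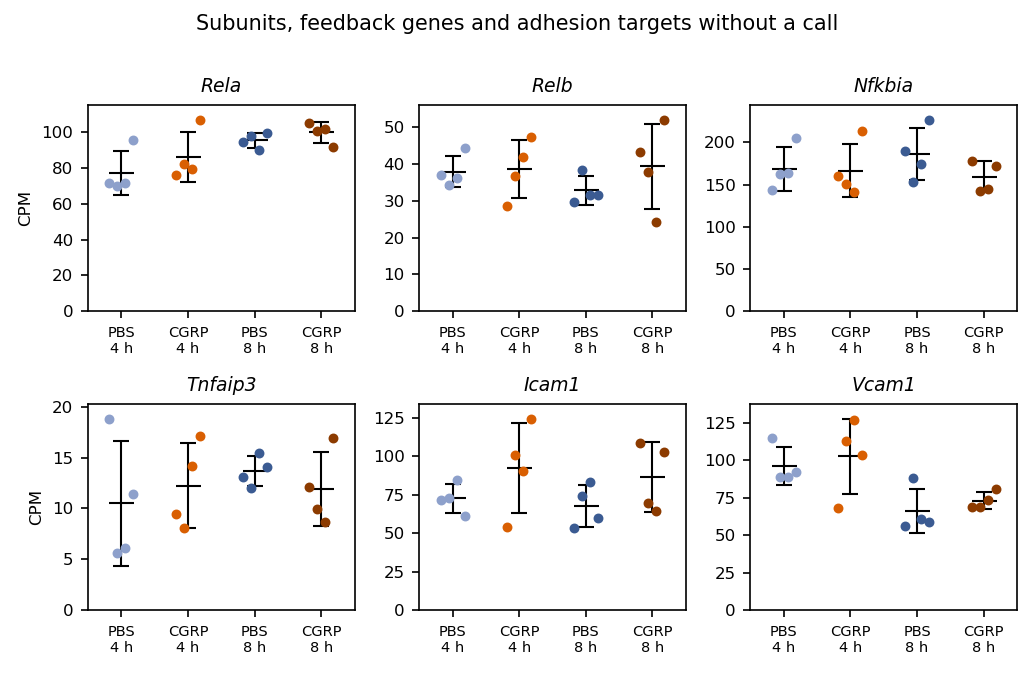
CPM of 6 members not called at either time, 1 point a library with the mean and SD (n = 4). Nfkbia (169 ± 26.03 CPM after PBS and 167 ± 31.9 after CGRP at 4 h) and Relb overlap throughout, and Icam1 is spread most in the CGRP groups.

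At 8 h the comparison rested on other libraries, and 2 members rose, Sod2 and Nfkb2, while none fell by edgeR at an adjusted p under 0.05. At an unadjusted p under 0.05 there were 8, and 22.6% of all genes. Over all genes tested 8.67% were called, 5.00% as rises and 3.67% as falls, so the members' share of rises, 5.00%, equalled the background. The median log2 fold change was 0.07 over the members and -0.02 over all genes. With upper-quartile scaling in place of TMM, rises made up 45.0% of the calls over all genes in place of 57.7%, the median over all genes was -0.06, and 1 member was called. The groups did not overlap for 4 members higher after CGRP (Myd88, Sod2, Tnfaip2 and Tnfaip6; 8.08% of all genes) and for 2 lower (Tlr4 and Tnip1; 6.75%).

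Sod2 read 55.7, 57.5, 57.4 and 58.3 CPM after PBS at 8 h and 111, 68.6, 78.1 and 124 after CGRP. The PBS libraries were very close to each other and below all CGRP libraries, of which replicates 1 and 4 were high (log2 0.74 ± 0.20, adjusted p = 0.0315 by edgeR). Without CGRP 8 h replicate 1 or 4, or without any 1 of the PBS 8 h libraries, the adjusted p was 0.0708 to 0.118. Nfkb2 (chr19:46304320-46312385), which encodes p100 and p52 of the alternative pathway, read 29.3, 33.7, 26.9 and 29.3 CPM after PBS and 66.0, 39.6, 27.1 and 51.4 after CGRP. Replicates 1 and 4 were again the high ones and replicate 3 lay within the PBS range (log2 0.63 ± 0.19, adjusted p = 0.0403 by edgeR). That call was lost in 10 of the 16 fits without 1 library, with a log2 fold change down to 0.40. Every PBS 8 h library was also below every PBS 4 h library in Nfkb2 (means 29.8 and 38.5 CPM), without a call between these times. Relb, the usual partner of p52, read 29.6, 38.5, 31.6 and 31.7 CPM after PBS and 43.4, 37.9, 24.3 and 52.0 after CGRP. Replicates 1 and 4 were the high ones here too, but the groups overlapped (log2 0.26 ± 0.18, adjusted p = 0.445 by edgeR). Rel read 4.07, 3.51, 1.82 and 2.28 CPM after PBS and 5.36, 3.88, 3.33 and 5.35 after CGRP (log2 0.60 ± 0.31, adjusted p = 0.259). Rela read 94.8, 98.3, 90.1 and 99.6 CPM after PBS and 105, 101, 102 and 91.9 after CGRP (log2 0.07 ± 0.11). Neither was called, and Rela had the narrowest spread of the subunits at this time in relation to its level.

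Of the other 10 members called at 4 h, none was called at 8 h. Tnfrsf1a read 204, 225, 241 and 204 CPM after PBS and 214, 254, 213 and 240 after CGRP (log2 0.07 ± 0.08). Tnfrsf1b read 56.0, 50.7, 52.3 and 50.4 CPM after PBS and 54.3, 53.5, 61.4 and 56.1 after CGRP (log2 0.11 ± 0.10). Irak3 read 131, 107, 150 and 153 CPM after PBS and 141, 143, 125 and 131 after CGRP (log2 -0.00 ± 0.11). In these 3 genes the groups overlapped. Nfkb1 read 45.8, 52.0, 55.0 and 56.2 CPM after PBS and 49.3, 50.1, 58.7 and 58.9 after CGRP (log2 0.05 ± 0.13). Nfkbib read 21.5, 29.0, 18.7 and 23.8 CPM after PBS and 25.7, 26.9, 25.8 and 25.4 after CGRP (log2 0.16 ± 0.14). Nfkbiz read 10.9, 11.4, 13.1 and 9.14 CPM after PBS and 9.50, 12.9, 8.54 and 20.6 after CGRP, where replicate 4 alone stood out (log2 0.20 ± 0.31). In Nfkb1 and Nfkbib the groups overlapped as well. Tnfaip6 read 31.9, 37.9, 30.7 and 29.7 CPM after PBS and 38.8, 44.4, 38.3 and 46.3 after CGRP, with no overlap but a small gap (log2 0.37 ± 0.28, adjusted p = 0.493 by edgeR). Il1r1 read 55.0, 59.9, 63.2 and 55.6 CPM after PBS and 52.0, 60.3, 58.8 and 63.5 after CGRP, so that both groups were near the level of CGRP 4 h (log2 0.00 ± 0.10). Traf1 read 2.04, 4.10, 3.80 and 1.34 CPM after PBS and 1.31, 0.647, 2.08 and 0.612 after CGRP, lower on average in 10 to 28 against 4 to 20 counts, but not called (log2 -1.23 ± 0.51, adjusted p = 0.144 by edgeR). Nfkbia read 189, 153, 174 and 226 CPM after PBS and 178, 142, 145 and 172 after CGRP (log2 -0.22 ± 0.14, adjusted p = 0.358). The groups overlapped.

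**Figure D5:**
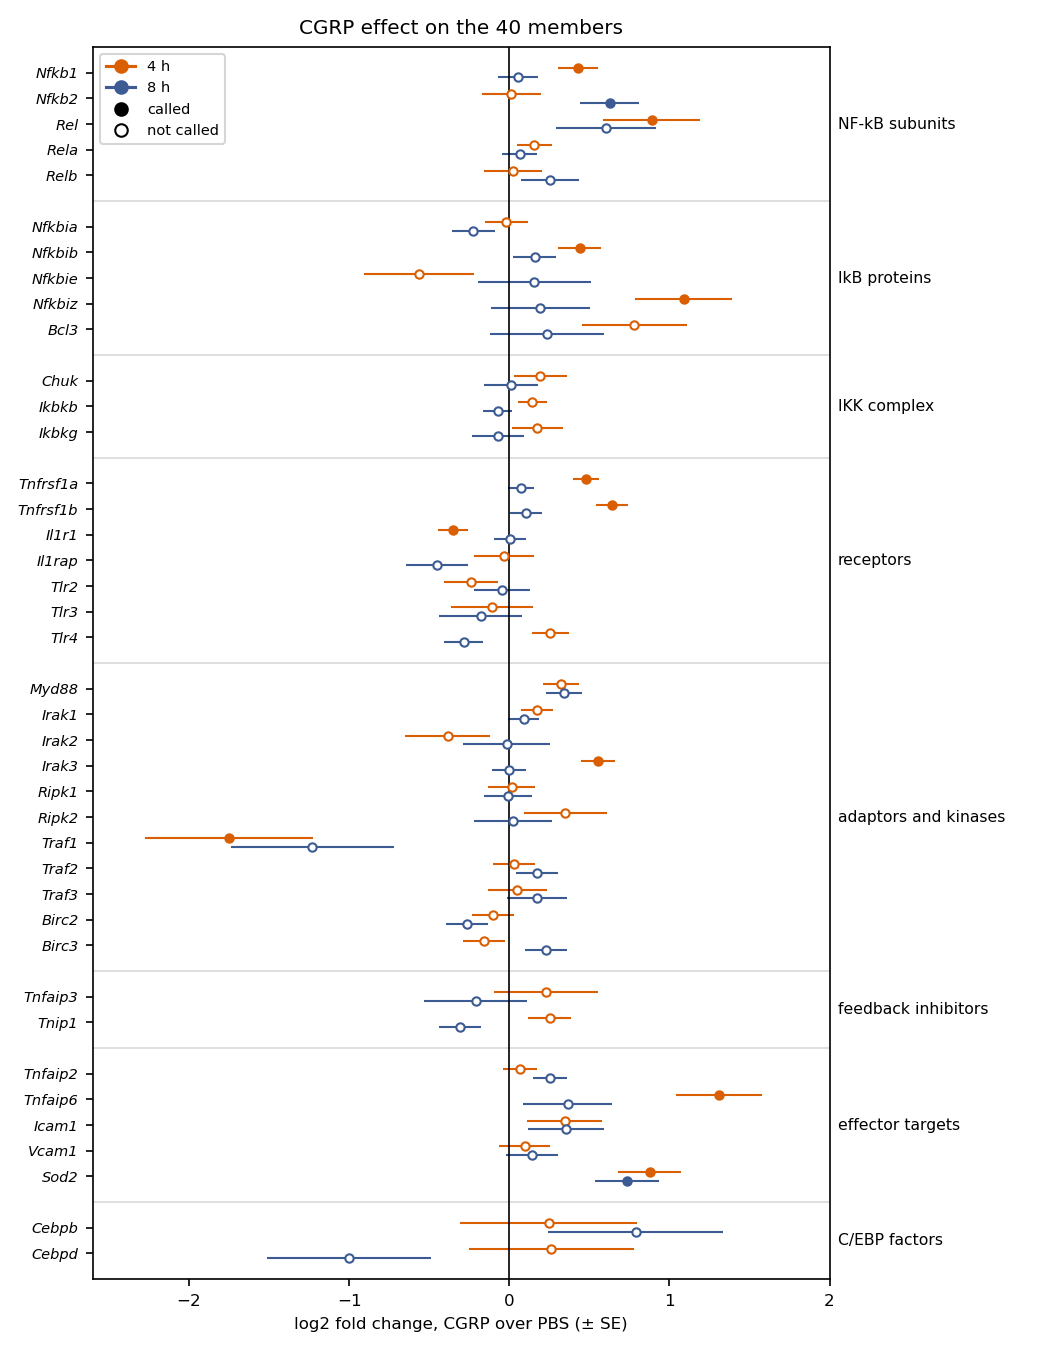
Log2 fold change of CGRP over PBS at 4 h and at 8 h for the 40 members by role (± SE from the edgeR fit; filled points are called at an adjusted p under 0.05). The calls at 4 h run from -1.75 (Traf1) to 1.31 (Tnfaip6), and those at 8 h are Sod2 (0.74) and Nfkb2 (0.63).

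Sod2 was called at both times, 10 members at 4 h alone and 1 at 8 h alone. Over all 13949 genes tested, 2262 were called at 4 h and 1210 at 8 h, and 324 rose and 233 fell at both times. More calls at 4 h than at 8 h were thus seen over all genes too. Whether the effect differed between the times was tested directly, by subtracting the 4 h effect from the 8 h one. No member was called by edgeR in that test (1.12% of all genes were, 0.695% as a higher effect at 8 h and 0.423% as a lower one), 10 had an unadjusted p under 0.05 (14.3% of all genes), and DESeq2 called 3 (2.77% of all genes). The smallest adjusted p by edgeR were those of Tnfrsf1b (log2 -0.54 ± 0.14, adjusted p = 0.0635), Irak3 (-0.56 ± 0.15, 0.0739) and Tnfrsf1a (-0.41 ± 0.12, 0.0838). These 3 are the ones that DESeq2 called, with adjusted p of 0.0175, 0.0354 and 0.0386, and they are named here after their values were seen. For Sod2 the difference was -0.14 ± 0.28 and for Nfkb2 0.61 ± 0.26 (adjusted p = 0.276 by edgeR), so the call of Nfkb2 at 8 h alone was not shown to be a difference between times.

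After PBS, 1 member fell from 4 h to 8 h and none rose (0.516% of all genes were called). The fall was that of Il1r1, at 78.5 ± 4.66 CPM at 4 h and 58.4 ± 3.86 at 8 h (log2 -0.43 ± 0.10, adjusted p = 0.0445 by edgeR), and the call was lost in 10 of the 16 fits without 1 library. The 4 libraries a time did not overlap for 2 members higher at 8 h (3.30% of all genes) and 5 lower (4.22%). After CGRP, 7 members fell and none rose, while 7.26% of all genes were called, 4.20% as rises and 3.05% as falls. No libraries overlapped for 8 members lower at 8 h (5.74% of all genes), and for no member higher (6.65%). This comparison shares its CGRP libraries with those against PBS, so the falls are not separate evidence, and without CGRP 4 h replicate 4 it gave 4 falls. Tnfrsf1a fell from 343 ± 11.5 to 230 ± 20.1 CPM (log2 -0.57 ± 0.08), Irak3 from 208 ± 18.6 to 135 ± 8.70 (-0.63 ± 0.11) and Tnfrsf1b from 71.4 ± 8.62 to 56.3 ± 3.58 (-0.34 ± 0.10). Tnfaip6 fell from 121 ± 67.0 to 42.0 ± 4.01 CPM (log2 -1.53 ± 0.27) and Nfkb1 from 74.6 ± 15.8 to 54.3 ± 5.25 (-0.46 ± 0.12). Tlr4, the receptor for bacterial lipopolysaccharide, fell from 47.5 ± 7.81 to 31.5 ± 2.42 CPM (log2 -0.59 ± 0.12), and Bcl3 from 6.58 ± 1.94 to 2.71 ± 0.307 (-1.26 ± 0.34). Neither of these last 2 was called against PBS at either time. Tlr4 was above PBS at 4 h (log2 0.26 ± 0.12) and below it at 8 h (-0.29 ± 0.12), with an adjusted p of 0.115 by edgeR for the difference. The 7 falls after CGRP had adjusted p from 1.05e-04 (Tnfrsf1a) to 0.0335 (Tnfrsf1b) by edgeR. Leaving out 1 library ended the call of Nfkb1 for 4 libraries, of Tnfrsf1b for 5 and of Bcl3 for 3. With only the groups compared the adjusted p of Tnfaip6 was 0.0521 by edgeR.

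The members not called at 4 h numbered 29, of which 27 had a log2 fold change within 0.5 of 0. At 8 h there were 38, of which 34 were within 0.5 of 0. The widest of these at 8 h were Traf1, Cebpd (53.9 ± 27.2 CPM after PBS and 26.9 ± 8.91 after CGRP) and Cebpb (1.40 ± 0.467 and 2.42 ± 1.57), members with few reads or a large spread.

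Of 106 other genes of the pathway, listed by role, 78 were tested. Of the 11 ligand genes listed, Tnf, Il1a, Il1b, Lta and Ltb averaged at most 0.412 CPM in every group. Il18 read 14.6 to 36.5 CPM over all libraries. At 4 h 10 of the 78 rose and 4 fell, or 17.9% called against 16.2% of all genes. The number called in all depended on single libraries (7 were called without PBS 4 h replicate 2, 9 without CGRP 4 h replicate 2 and 8 without CGRP 4 h replicate 4). Among the 14 were 1 receptor, 5 adaptors or enzymes, 3 inhibitors and 5 targets, and none of the 3 ligands tested. Tank, which binds TRAF proteins and curbs their signalling, had the smallest p, at 26.8, 24.2, 30.5 and 25.5 CPM after PBS and 50.2, 47.9, 41.1 and 51.3 after CGRP (log2 0.83 ± 0.11, adjusted p = 3.40e-05 by edgeR). The libraries were well apart. Ptgs2, the inducible cyclooxygenase, rose from 15.3 ± 6.00 to 40.9 ± 17.2 CPM (log2 1.43 ± 0.33), Csf1, the growth factor of macrophages, from 174 ± 24.5 to 250 ± 73.1 (0.52 ± 0.15), the lymphotoxin receptor Ltbr from 63.1 ± 4.90 to 80.2 ± 4.56 (0.34 ± 0.10) and the peptidoglycan sensor Nod1 from 55.9 ± 4.76 to 78.7 ± 8.55 (0.49 ± 0.15). Falls were seen in Psmb9, an immunoproteasome subunit (log2 -1.02 ± 0.19), the adaptor Traf5 (-0.58 ± 0.13) and Commd1, which promotes RelA turnover (-0.48 ± 0.12). The rises of Csf1, Ltbr and Nod1 were each lost without some 1 library of the 4 h groups, and the log2 fold change of Csf1 was 0.31 without CGRP 4 h replicate 4.

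At 8 h 8 of the 78 rose and none fell by edgeR, or 10.3% called against 8.67% of all genes (25 had an unadjusted p under 0.05, where the share of all genes was 22.6%). Of these 8 the 3 with the largest fold changes were chemokine genes, while the chemokine genes Cxcl1 and Cxcl10 were not called (adjusted p = 0.191 and 0.922 by edgeR). Ccl2, which attracts monocytes, read 15.7, 101, 36.5 and 6.58 CPM after PBS and 867, 390.2, 209.7 and 1031 after CGRP (log2 3.98 ± 0.91, adjusted p = 0.0191 by edgeR), and Ccl7 10.2, 28.6, 13.5 and 5.78 against 236, 127, 79.8 and 245 (3.57 ± 0.72, adjusted p = 0.0106). No libraries overlapped, and replicates 1 and 4 were the highest in both genes. Without PBS 8 h replicate 2, the highest of the PBS libraries, the log2 fold change of Ccl2 was 5.03. At 4 h Ccl2 read 37.6 to 195 CPM after PBS and 158 to 808 after CGRP, and Ccl7 22.7 to 126 and 70.5 to 365. For both genes the 4 h groups overlapped, and PBS 4 h reached higher than PBS 8 h. Cxcl5, which attracts neutrophils, was at 0, 2.49, 1.22 and 0 CPM after PBS and 237, 33.0, 41.2 and 197 after CGRP. Pooled over libraries that is 25 against 4334 counts, a ratio of 141 scaled for depth (95% exact interval 95.4 to 218, for counting error only), and the adjusted p was 0.0341 by edgeR. PBS 8 h replicate 2 held 17 of the 25 counts. The ratio was 336 without it and 89.8 without CGRP 8 h replicate 1, so 1 library moved it beyond that interval. In the 4 h groups Cxcl5 read 0 to 92.7 CPM after PBS and 7.01 to 165 after CGRP, and these groups overlapped. Tnfrsf12a, the receptor for TWEAK, rose from 39.8 ± 9.47 to 123 ± 45.9 CPM (log2 1.62 ± 0.39), Il1r2, the decoy receptor for interleukin 1, from 12.2 ± 4.94 to 29.4 ± 8.13 (1.27 ± 0.35), and Tlr5, the receptor for flagellin, from 2.00 ± 0.579 to 4.98 ± 2.25 (1.30 ± 0.40). At 4 h Il1r2 was at 44.4 ± 20.9 CPM after PBS and 61.3 ± 6.73 after CGRP, and Tlr5 at 4.84 ± 1.16 and 5.45 ± 2.36, so that for both genes PBS 8 h was the low group and CGRP 8 h was within 1 SD of PBS 4 h. The syndecan gene Sdc4 rose from 188 ± 8.61 to 342 ± 102 CPM (log2 0.86 ± 0.19) and Tank from 24.98 ± 2.15 to 33.2 ± 2.07 (0.41 ± 0.12). Tank was the only gene of the 78 called as a rise at both times. Without 1 of 5 or more libraries each, Ccl2, Cxcl5, Il1r2, Tank, Tlr5 and Tnfrsf12a were no longer called, whereas Ccl7 and Sdc4 were called in all 16 such fits. Of the 78, 2 were called without PBS 8 h replicate 4 and 3 without PBS 8 h replicate 1 or 3 or CGRP 8 h replicate 1 or 4. In the test of the difference between times none of the 78 was called by edgeR, and 14 had an unadjusted p under 0.05 (17.9%, against 14.3% of all genes).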

How the data were processed

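The authors deposited raw read counts per gene, whole numbers in 1 column per library. Per the submitters' processing notes, reads were aligned to mm10 with STAR 2.5.4 and counted with featureCounts (version not given). Annotation and strand setting are not stated. Per the labels' protocols, oligo(dT)-primed cDNA was PCR-amplified, converted with the Nextera XT kit and read as pairs of 25 bases.

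Counts were fitted with edgeR 4.0.16 in R 4.3.3: filterByExpr (13949 genes kept), TMM, robust quasi-likelihood with 1 mean per group over all 16 libraries, 12 residual degrees of freedom. Tests were two-sided, with Benjamini-Hochberg adjustment over all genes, and calls were made below an adjusted p of 0.05, without a fold limit. CPM uses TMM-scaled totals of the tested genes. Alternatives were other scalings, DESeq2 1.42.0, other filters, a replicate block and left-out libraries. The fit was tested on simulated data. Replicates may differ only technically, and reads carry no molecular identifiers. No 2 replicates were 1 library (chi-square 6.52 to 22.7 times its degrees of freedom).

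Members called at 4 h or 8 h, the NF-kB subunits and Nfkbia were given by library, the others by group or range, and of the other pathway genes the 8 with the smallest p per comparison. Members and lists were chosen with earlier results of these data known.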

Additional observations from a re-analysis of the deposited data

Results flagged for a closer look

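In each of the 4 groups, a member's highest or lowest library was compared with the nearest of the other 3, and 9 of 160 such groups (5.63%) had a gap above Dixon's critical share of the group's whole range (95% level). Chance alone flags about 1 in 20. At PBS 4 h, replicate 4 was high for Rela (95.6 CPM, the others 70.1 to 71.8) and low for Traf1 (2.39 against 3.12 to 3.23). Replicate 3 was high for Traf3 (25.9 against 17.8 to 18.7) and Ripk1 (24.1 against 19.2 to 19.7), and replicate 1 for Vcam1 (115 against 88.6 to 91.9). At CGRP 4 h, replicate 1 was low for Nfkbie (3.76 against 9.55 to 11.1) and replicate 3 high for Cebpb (2.01 against 1.45 to 1.52, which is 11 to 16 counts). At PBS 8 h, replicate 4 was low for Nfkbie (4.84 against 9.08 to 9.41) and replicate 3 for Irak1 (47.5 against 61.1 to 62.7). Of these genes Traf1 alone was called at 4 h, and its low PBS library lay on the side of the CGRP group.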

How the results depend on the processing

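Of 21 calls of members over the comparisons, 7 held in all alternatives, 14 were lost in at least 1 and none changed sign. At 4 h Tnfrsf1a, Tnfrsf1b, Irak3 and Sod2 held in all 24.

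The members called numbered 11 at 4 h, 6 to 12 without 1 library, and the other pathway genes 14, 7 to 16 without 1 library. Over all genes 2262 were called at 4 h, 1481 to 2245 without 1 library. At 8 h the 2 members became 1 with upper-quartile scaling (1180 calls over all genes), 0 without the 4 libraries with most genes detected (where calls over all genes went from 1210 to 191) and 0 to 3 without 1 library (577 to 1297 over all genes), and the 8 other genes 1 and 2 to 10. The 4 libraries were PBS 4 h replicate 4, CGRP 4 h replicate 3 and PBS 8 h replicates 1 and 4. Of the PBS 8 h group this left only replicates 2 and 3. For the difference, where none was called, DESeq2 gave 3 members, no filter 1, the stricter filter (50 reads in 4 libraries) 1 and leaving out 1 library 0 to 1. Over all genes the 156 calls became 387 with DESeq2, 456 of 40070 without a filter and 180 with the stricter filter. Leaving out 1 library gave 80 to 196. For the other genes the replicate block gave 1 and leaving out 1 library 0 to 2. From 4 h to 8 h after PBS the 1 member became 3 with DESeq2, 5 without a filter, 2 with only the groups compared, 0 without the 4 libraries and 0 to 4 without 1 library, and the 2 other genes 5, 4 and, without 1 library, 1 to 3. Calls over all genes moved as well, from 72 to 323 with DESeq2 and 422 of 40070 without a filter. They were 131 with only the groups compared, 55 without the 4 libraries and 17 to 280 without 1 library. After CGRP the 7 members became 4 with only the groups compared and 4 to 8 without 1 library, while the 1012 calls over all genes became 776 and 666 to 1014.

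Among members without a call at 4 h, the log2 fold change of Nfkb2 turned to -0.030 and that of Relb to -0.016 with upper-quartile scaling, and Nfkbia to 0.16 without the 4 libraries. Leaving out 1 library gave -0.055 to 0.11 for Nfkb2, -0.077 to 0.16 for Relb and -0.15 to 0.10 for Nfkbia. The cause was not tested.

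With the plain 10-letter kappa B site in place of the NF-kB consensus, 1 of 32 members (Nfkb2) and 0.174% of all genes held a match.

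Whether equal replicate numbers pair the libraries is not stated. Deviations of same-numbered libraries correlated at -0.056 to 0.088. Only between PBS 4 h and PBS 8 h did every library correlate best with its own number (0.025 to 0.060), which is a hint from the data. With the replicate block 10 members were called at 4 h (Rel was lost, adjusted p = 0.0548 by edgeR) and 2 at 8 h, and at 8 h 6 other pathway genes (Cxcl5, Il1r2 and Tnfrsf12a were lost and Plau was gained). Depth limits Rel, Traf1, Cebpb and Bcl3, with 2 to 69 counts a library.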
